A study of Mus musculus with 6 samples.

Results

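Pla2g7 and Pla2g10, a pair of phospholipase A2 genes, were followed across microarrays of the mouse aorta. The scanner output names probes by code only, so the members were taken as the probes that the study's list of differentially expressed mRNAs pairs with either symbol. These were 3 of the 91188 probes on the array, with 2 probes for Pla2g7 (A_66_P119034 and A_66_P114784) and 1 for Pla2g10 (A_55_P2035772), and the 2 genes are among 278 symbols that could be tied to a probe. The study had put both genes on that list because they differed between the diets on these same arrays, so their diet differences are given as a description, with standard errors and without a test.

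The material was total RNA from 6 aortas of male mice on a C57BL/6 background, homozygous for a disrupted apoE gene. Of these, 3 belonged to the normal diet group, fed normal chow, and 3 to the high-fat diet group, fed 20% fat and 2.5% cholesterol for 8 weeks. All 6 mice, the normal diet group included, carried the apoE(-/-) genotype, which by itself leads to atherosclerosis, and no age was given. Each aorta was hybridised to 1 array in 1 colour (cyanine 3). Normal diet replicates 1 and 3 lay on slide 1, while normal diet replicate 2 shared slide 2 with all 3 high-fat diet arrays. No probe could be named for Apoe or for any of the 8 smooth muscle and 8 endothelial markers listed for a check, so genotype and tissue could not be checked on the arrays.

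Phospholipases A2 cut the fatty acid from the middle position of a phospholipid and leave a lysophospholipid. Pla2g7 encodes the plasma platelet-activating factor acetylhydrolase, also called lipoprotein-associated phospholipase A2. It needs no calcium, is secreted largely by macrophages, travels on lipoproteins, and hydrolyses platelet-activating factor and oxidised phospholipids. Pla2g10 encodes group X secretory phospholipase A2, a calcium-dependent enzyme made as a precursor and activated by removal of its propeptide. It acts well on phosphatidylcholine, the main phospholipid of lipoproteins and outer cell membranes, and can release arachidonic acid, the precursor of prostaglandins and leukotrienes. Both enzymes have been studied in atherosclerosis.

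The 3 probes are the only readout of the genes here, and their bases are shown because every value below rests on them. In the lines that follow nothing is capitalised, and for A_66_P119034 and A_55_P2035772 only the first 30 of the 60 bases are given.
Pla2g7 A_66_P119034, first 30 bases: ttacccaaataagcattttttaaatataca
Pla2g7 A_66_P114784, all 60 bases: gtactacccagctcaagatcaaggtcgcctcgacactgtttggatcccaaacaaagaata
Pla2g10 A_55_P2035772, first 30 bases: ggcttggctgtggtaataacattgccacat

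The Pla2g7 probes differed in make-up. Probe A_66_P119034 was AT-rich, with a GC content of 33.3%, and had stop codons in all forward reading frames. Probe A_66_P114784 had a GC content of 46.7% and was free of stop codons in all 3 forward frames. The median GC content over all probes was 41.7%, and 23.7% of probes had no open forward frame. The Pla2g10 probe had a GC content of 35.0% and 1 open forward frame. The Pla2g7 probes shared no run of bases longer than 7 with each other, so they read separate stretches of sequence. A run of 16 bases was shared with 1 of the other 91187 probes by A_66_P119034 and with 0 by A_66_P114784 and by the Pla2g10 probe, and no run of 20 bases was shared with any. The scanner output gives these probes no genomic position, and no genome sequence was used to place them.

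In the RefSeq annotation of mouse build GRCm38.p6, Pla2g7 lies on chr17:43567994-43612202 (plus strand, 44209 bases) and Pla2g10 on chr16:13715057-13731094 (minus strand, 16038 bases). RefSeq's table of promoters gives each gene 1 start, and the 250 bases before that start were searched for letters on both strands (chr17:43568201-43568450 for Pla2g7 and chr16:13730485-13730734 for Pla2g10). Both windows lie inside the gene spans just given, which begin further upstream, so they precede the start of that table and not the outermost start. The GC box GGGCGG, the core letters bound by Sp1, occurred once in the Pla2g7 window and at 2 places in the Pla2g10 window, and in 32.7% of 32851 mouse promoter windows of the same length. It is shown because it was the motif of the 8 searched that both genes held, with the box in capitals, read along the gene's strand.
Pla2g7, chr17:43568421-43568450 (plus strand): gcccatcatcaccctccCCGCCCcccaggc
Pla2g10, chr16:13730532-13730561 (minus strand): tcctgcttgactCCGCCCcacggaaagaag
Pla2g10, chr16:13730504-13730533 (minus strand): aggtgaggtaggGGGCGGggctggtggtgg

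Counted to its first base along the gene's strand, the Pla2g7 box began 13 bases before the start in the promoter table, and the Pla2g10 boxes began 65 and 37 bases before theirs. The Pla2g10 window also held CCAAT 1 time and the E box CANNTG 2 times, letters present in 33.8% and 66.2% of windows. In neither window did the PU.1 core GAGGAA (23.3% of windows), the nuclear receptor core AGGTCA (14.02%), the TATA box TATAAA (12.4%), the AP-1 site TGANTCA (6.75%) or an NF-kB-like site (17.6%) occur. GC content was 52.8% in the Pla2g7 window and 56.4% in the Pla2g10 window, against a median of 52.4% over all windows. These matches describe letters only.

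Signal is given as log2 of the background-subtracted intensity, quantile normalised so that all 6 arrays share 1 distribution. Levels of different probes are not compared, because probes differ in brightness. In whole tissue, more RNA per cell and more cells that hold the RNA cannot be told apart. The arrays differed by slide. Probes were detected at 64.4% and 62.6% on slide 1 and at 72.4% to 76.0% on slide 2. The background that the scanner software subtracted had medians of 42.0 and 43.1 on slide 1 and 21.9 to 23.3 on slide 2. No spot was saturated. Of the 91188 probes, 64467 were kept because every array of 1 or both diets detected them, the 3 probes of Pla2g7 and Pla2g10 among them. The Pla2g10 probe passed only through the high-fat diet arrays, since it was well above background on 1 of 3 normal diet arrays.

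Pla2g7 signal was higher in the high-fat diet group by both probes. At probe A_66_P119034 the log2 intensity was 8.44, 8.12 and 9.19 on normal diet arrays 1, 2 and 3, and 9.79, 9.57 and 10.04 on high-fat diet arrays 1, 2 and 3. The lowest high-fat diet array lay above the highest normal diet array, normal diet replicate 3. The means were 8.58 ± 0.55 (SD, n = 3) for the normal diet group and 9.80 ± 0.24 (SD, n = 3) for the high-fat diet group, a log2 difference of 1.22 (SE 0.30) or 2.33-fold.

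The second Pla2g7 probe gave the same order of diets. Probe A_66_P114784 read 8.21, 8.01 and 8.86 on normal diet arrays 1, 2 and 3, and 9.47, 9.46 and 9.73 on high-fat diet arrays 1, 2 and 3. Normal diet replicate 2 was again the lowest array and high-fat diet replicate 3 the highest. The means were 8.36 ± 0.45 (SD, n = 3) and 9.55 ± 0.15 (SD, n = 3), a log2 difference of 1.19 (SE 0.25) or 2.29-fold.

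After each probe was centred on its own mean of 6 arrays, the 2 Pla2g7 probes departed from each other by 0.09 log2 units (root mean square over the arrays) and by 0.12 at most. The SD between arrays of the same diet was larger, 0.42 and 0.33 at the 2 probes. The spread of Pla2g7 among the normal diet arrays was therefore seen by both probes. Those arrays are separate animals, but the probes read the same RNA and are not replicates of the diet.

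With the 2 probes averaged, Pla2g7 stood at 8.33, 8.07 and 9.03 on normal diet arrays 1, 2 and 3 and at 9.63, 9.52 and 9.89 on high-fat diet arrays 1, 2 and 3. The normal diet arrays spanned 0.96 log2 units and the high-fat diet arrays 0.37. The log2 difference between the diets was 1.21 (SE 0.27), or 2.31-fold. Each high-fat diet array was higher than each normal diet array, in 9 of 9 pairs, and the difference was at least 2-fold in 6 of these. The smallest gap was 0.49 (1.41-fold), between high-fat diet replicate 2 and normal diet replicate 3. The largest was 1.82 (3.54-fold), between high-fat diet replicate 3 and normal diet replicate 2.

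Pla2g10 signal was also higher in the high-fat diet group, at a spot close to background. The log2 intensity was 3.07, 3.62 and 3.04 on normal diet arrays 1, 2 and 3, and 4.43, 4.15 and 4.45 on high-fat diet arrays 1, 2 and 3. The diets did not overlap, and the normal diet array closest to the high-fat diet arrays was replicate 2, on their slide. The means were 3.24 ± 0.33 (SD, n = 3) and 4.35 ± 0.17 (SD, n = 3), a log2 difference of 1.10 (SE 0.22) or 2.14-fold. Only 1 of the 3 normal diet arrays, replicate 2, measured Pla2g10 well above background, so the normal diet mean and this fold rest on spots near the floor. In 9 of 9 array pairs the high-fat diet array was higher. The smallest gap was 0.53 (1.44-fold), between high-fat diet replicate 2 and normal diet replicate 2, and no fold is given for pairs with the other normal diet arrays.

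**Figure D1:**
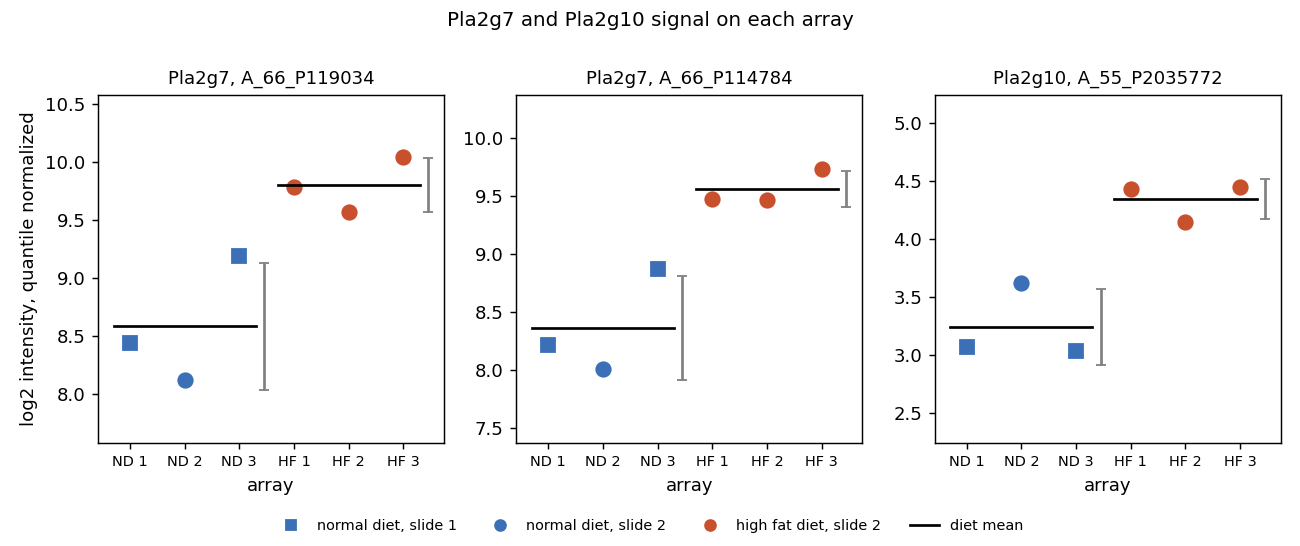
Log2 intensity (vertical axis, quantile normalised) of the 2 Pla2g7 probes and the Pla2g10 probe on each array (horizontal axis; ND normal diet, HF high-fat diet). Squares are slide 1 and circles slide 2, black lines are diet means, and grey bars span 1 SD either side of the mean. Normal diet replicate 2 is the lowest normal diet array for Pla2g7 (8.12 and 8.01) and the highest for Pla2g10 (3.62), whose other normal diet arrays were not well above background.

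In all 3 probes every high-fat diet array lay above every normal diet array, which held for 8.87% of the kept probes, while 10.4% had every high-fat diet array below every normal diet array. A difference of at least 2-fold upward was found at 3.62% of kept probes, and 2.13% were higher by at least 2-fold with an unadjusted p of at most 0.05 in limma. The study set the same limits on fold and p with a test that does not share the spread across probes, by which 359 kept probes were higher here, against 1374 in limma. Pla2g7 and Pla2g10 were chosen by such criteria, so nothing is read from these shares. In the deposited log2 table, the differences were 1.22 (2.33-fold) and 1.20 (2.29-fold) at the Pla2g7 probes and 1.08 (2.12-fold) at the Pla2g10 probe. The kept probe just outside the 2-fold limit there, with an unadjusted p of at most 0.05, stood at a log2 difference of 1.00 (1.999-fold).

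The size of both differences moved with the choice of normal diet array. Against normal diet replicate 2 alone, the only normal diet array on the slide of the high-fat diet arrays, Pla2g7 was higher by 1.61 (SE 0.32), or 3.06-fold, compared with 1.00 against the slide 1 arrays. Since replicate 2 is a single array, this SE and all calls against it use the spread of the high-fat diet arrays and of the slide 1 arrays, and assume that replicate 2 varies like them. The 2 Pla2g7 probes gave 1.68 (SE 0.34) and 1.54 (SE 0.30) against replicate 2, and 0.99 and 1.02 against slide 1. All 3 pairs with replicate 2 exceeded 2-fold, and 3 of the 6 pairs with slide 1 arrays did.

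The Pla2g10 difference was 0.72 (SE 0.21), or 1.65-fold, against normal diet replicate 2, the normal diet array on which its probe was well above background. That value was 0.29 without background subtraction and 0.17 with normexp background correction, a model of signal and background with an offset of 50 added. The same settings gave 1.51 and 1.43 for Pla2g7. The slide 1 arrays give no firm difference for Pla2g10, since the probe was not well above background there. The 3 pairs with replicate 2 lay between 0.53 and 0.83, 0 of them at 2-fold. Among all kept probes, 2.10% were higher by at least 2-fold against replicate 2.

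The shift within the normal diet group itself, replicate 2 minus the mean of the slide 1 arrays, was -0.61 for Pla2g7, and -0.54 and -0.52 without background subtraction and with normexp. A shift at least as low as -0.61 was found at 13.8% of kept probes. For Pla2g10 the shift was 0.57 as processed, but 0.13 and 0.05 under those settings. A shift at least as high as 0.57 was found at 19.7% of kept probes. Both settings shrink the differences of dim spots by construction, and the part of the background in this shift was not tested. With a single normal diet array on slide 2, a difference between slides and a difference between animals cannot be told apart.

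Pla2g7 spots were bright. At A_66_P119034 the processed intensity was 320, 290 and 503 on the normal diet arrays in scanner units, against 825, 955 and 1086 in the high-fat diet group. Subtracted background made up 6.87% to 10.8% of the mean spot signal on the normal diet and 1.88% to 2.31% on the high-fat diet. At A_66_P114784 the processed intensity was 272, 268 and 401 on the normal diet and 664, 880 and 873 on the high-fat diet. Both probes were well above background on all 6 arrays.

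The Pla2g10 spot was close to background. Its mean spot signal before any subtraction was 50.05, 35.5 and 51.8 on normal diet arrays 1, 2 and 3, and 44.1, 47.4 and 47.3 on high-fat diet arrays 1, 2 and 3. Before subtraction, then, the slide 1 normal diet arrays were the brightest of the 6, and replicate 2 the dimmest. The background subtracted was 42.3, 22.6 and 43.2 on normal diet arrays 1, 2 and 3, and 21.8, 23.2 and 22.8 on high-fat diet arrays 1, 2 and 3. It made up 84.5% and 83.5% of the spot on slide 1, 63.7% on normal diet replicate 2, and 48.2% to 49.4% on the high-fat diet.

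What remained of Pla2g10 as processed intensity was 7.18, 12.3 and 7.82 on normal diet arrays 1, 2 and 3, and 20.7, 23.1 and 23.2 on high-fat diet arrays 1, 2 and 3. The scanner software's own error was 2.15 to 2.94 on every array, so the signal was 2.66 to 5.73 times its error on the normal diet and 7.89 to 8.30 times on the high-fat diet. The software marked Pla2g10 as well above background on 3 of 3 high-fat diet arrays and on 1 of 3 normal diet arrays, replicate 2. It marked the probe as positive and significant on all 6.

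Negative control spots, which match no transcript, also show the floor, and it differed by slide. Their mean was 37.9 and 38.5 on slide 1 and 19.6 to 20.3 on slide 2. The Pla2g10 mean spot signal was 1.32, 1.80 and 1.34 times their mean on normal diet arrays 1, 2 and 3, and 2.25, 2.33 and 2.36 times on high-fat diet arrays 1, 2 and 3. On this ratio the slide 1 arrays were the lowest and the high-fat diet arrays the highest. Slide 1 spots were the brightest before division, so their low ratio comes from the larger control mean. The ratio is therefore no independent support for a diet difference. Of the 575 to 592 negative control spots on an array, 0 were as bright as the Pla2g10 spot.

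**Figure D2:**
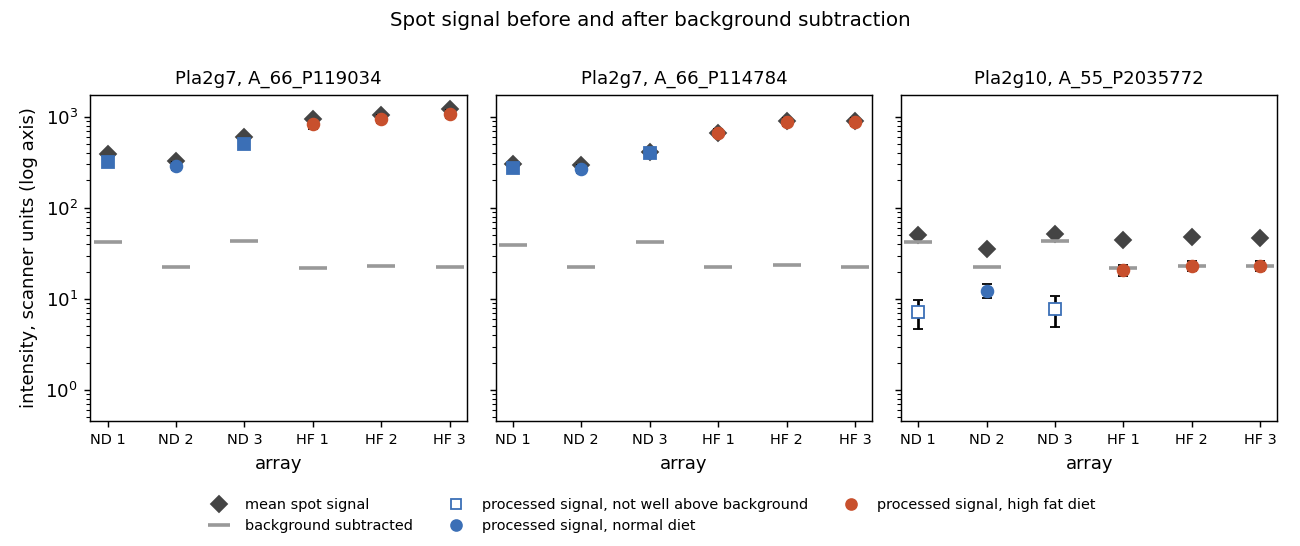
Intensity in scanner units (vertical log axis) on each array (ND normal diet, HF high-fat diet) for the mean spot signal (diamonds), the background subtracted (grey bars) and the processed signal that remained. Squares are slide 1, circles slide 2, open symbols were not well above background, and error bars are the scanner software's error. For Pla2g10 the mean spot signal is 50.05 and 51.8 on slide 1 and 35.5 to 47.4 on slide 2, while the processed signal is 7.18 to 12.3 on the normal diet and 20.7 to 23.2 on the high-fat diet.

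Handling of background changed the size of the Pla2g10 difference more than that of Pla2g7. With the mean signal used without subtraction and quantile normalised, the log2 difference was 0.37 (SE 0.11) for Pla2g10 and 1.15 (SE 0.23) for Pla2g7. With normexp it was 0.20 (SE 0.07) for Pla2g10 and 1.09 (SE 0.22) for Pla2g7. Both genes remained higher on the high-fat diet under each of the settings drawn in the plot of settings. An offset pulls dim spots towards no difference by its construction, and so does background left in the signal. The part of the slide background in the Pla2g10 difference was not tested.

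**Figure D3:**
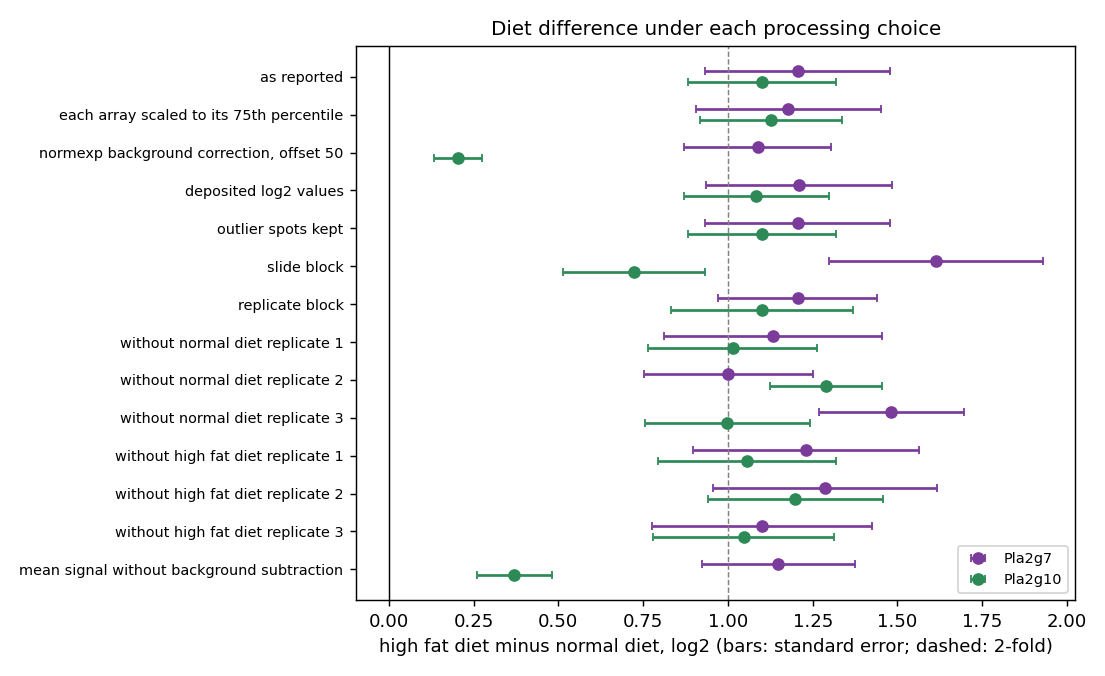
High-fat minus normal diet log2 difference (horizontal axis) of Pla2g7 (mean of 2 probes) and Pla2g10 under each processing choice (rows), with standard errors as bars and a dashed line at 2-fold. Pla2g10 lies at 0.20 with normexp, 0.37 without background subtraction and 0.72 with the slide as a block, against 1.09, 1.15 and 1.61 for Pla2g7.

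Single arrays moved both values. With each array left out in turn, the Pla2g7 difference ran from 1.00, without normal diet replicate 2, to 1.48, without normal diet replicate 3. The Pla2g10 difference ran from 0.999, without normal diet replicate 3, to 1.29, without normal diet replicate 2, which leaves normal diet arrays where the probe was not well above background. Leaving out a high-fat diet array gave 1.10 to 1.29 for Pla2g7 and 1.05 to 1.20 for Pla2g10.

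The other genes of these pathways could be read only where the study's list named a probe. Of 26 genes of the phospholipase A2 and platelet-activating factor acetylhydrolase family, the 2 with a named probe were Pla2g7 and Pla2g10. For the 28 genes of ether lipid and platelet-activating factor metabolism, among them the receptor Ptafr, 0 probes could be named. Of 27 genes of arachidonic acid and eicosanoid metabolism, 1 could be named, Ggt1, which can convert leukotriene C4 to D4. Of 10 lipase genes and their regulators, 4 could be named. The study chose these genes on the same arrays, so their calls are no independent evidence, and all adjusted p-values of the named list genes in limma were 0.338. An adjusted p under 0.05 was reached by 0.00155% of kept probes (1 probe). Both criteria together, in either direction, were met by 2.96% of kept probes.

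Ggt1 read 5.61, 4.48 and 5.51 on normal diet arrays 1, 2 and 3, and 4.36, 3.59 and 3.96 on high-fat diet arrays 1, 2 and 3. It was lower on the high-fat diet, with a log2 difference of -1.23 (SE 0.35), and -0.51 against normal diet replicate 2 alone, where it no longer met the criteria. Pla2g10 differed in the other direction, and both genes had the smaller difference against that array. A link between Ggt1 and Pla2g10 was not tested.

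Among the lipase genes, Angptl4, an inhibitor of lipoprotein lipase, had a log2 difference of 1.33 (SE 0.29), and 1.97 against normal diet replicate 2. It resembled Pla2g7 in that replicate 2 was its lowest array, at 11.51. Nceh1, which hydrolyses cholesteryl esters in macrophages, differed by 1.24 (SE 0.33), and by 1.23 against replicate 2. Abhd15, an adipose protein of the alpha/beta hydrolase family, differed by 1.08 (SE 0.32), and by 1.05 against replicate 2. Lipf, gastric lipase, was lower, at -1.49 (SE 0.31), and -1.08 against replicate 2. In the fit blocked by slide, in which 1.64% of kept probes met both criteria upward, Abhd15 did not meet them. Nothing is read from that share, since the study had chosen these genes on the same arrays.

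Macrophages are a main source of the Pla2g7 enzyme, and 4 of 20 macrophage marker symbols had a named probe. The lysosomal protein Cd68 read 5.09, 4.38 and 5.94 on normal diet arrays 1, 2 and 3, and 6.87, 7.87 and 6.997 on high-fat diet arrays 1, 2 and 3. Its log2 difference was 2.11, and 2.87 against normal diet replicate 2. On the normal diet, Cd68 had the array order of Pla2g7, with replicate 2 lowest and replicate 3 highest. On the high-fat diet it did not, since replicate 2 was the highest array for Cd68 and the lowest for Pla2g7.

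The other 3 markers were Clec7a, a receptor for fungal glucans, Spp1, the secreted protein osteopontin, and Cd180, a relative of the toll-like receptors. Clec7a differed by 2.12, and by 3.38 against replicate 2. Spp1 differed by 3.67, and by 5.55 against replicate 2. Cd180 was well above background on 0 of 3 normal diet arrays, so no fold is given, and it read 3.42 to 4.55 with the high-fat diet.

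These 4 could be named only because the study had listed them for a diet difference on these arrays, so their differences are no independent evidence. All 4 had their highest value on high-fat diet replicate 2. Over the 3 markers well above background on all arrays (Cd68, Clec7a and Spp1), the log2 deviations, each from its own mean of 6 arrays, averaged -1.07, -2.62 and -0.26 on normal diet arrays 1, 2 and 3, and 0.75, 2.304 and 0.90 on high-fat diet arrays 1, 2 and 3. Pla2g7 did not share the peak on high-fat diet replicate 2. Whether the number of macrophages had a part in the Pla2g7 or Pla2g10 difference was not tested, and the other 16 symbols of the marker list had no named probe. Of 15 marker symbols of other leukocytes, 3 could be named in the same way, the mast cell chymase Cma1 (log2 difference 1.25), the neutrophil antigen Ly6g (1.14) and the neutrophil protease Prtn3 (-1.08). Against normal diet replicate 2 alone they differed by 1.93, 1.64 and -0.79, and Prtn3 no longer met the criteria. For fibroblasts, adipocytes and epithelium, 0 of 6, 0 of 8 and 0 of 6 markers could be named.

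The likeness of Pla2g7 and Pla2g10 to other named probes was measured as the root mean square, over the 6 arrays, of the difference between their log2 deviations from their own means. A distance of 0 would be the same profile. All 249 named probes compared were chosen by the study for a diet difference on these arrays, and the arrays share slides and diets, so the distances are descriptions.

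The 5 named probes closest to Pla2g7 were Ivns1abp, a kelch-repeat protein, at 0.10, the carboxylesterase Ces1f at 0.12, a probe of the secretin receptor Sctr at 0.12, the mitochondrial alcohol dehydrogenase family member Adhfe1 at 0.15, and a second Sctr probe at 0.16. They were also the 5 closest of all 64464 other kept probes, whose median distance was 0.74. All 5 remained the closest 5 named probes with slide means removed and in the deposited log2 values, but with slide means removed 18 of all kept probes lay as close as the fifth. Ivns1abp read 7.05, 6.85 and 7.85 on normal diet arrays 1, 2 and 3, and 8.20, 8.06 and 8.55 on high-fat diet arrays 1, 2 and 3, with the same lowest and highest array in each diet as Pla2g7. Abhd15 stood at 0.28 (rank 20), Angptl4 at 0.31 (rank 30) and Cd68 at 0.63 (rank 115 of 249).

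For Pla2g10 the closest named probes were Ushbp1, a harmonin-binding protein, at 0.15, the zinc finger protein Bnc2 at 0.15, the T cell costimulator Icos at 0.17, and the mitochondrial isocitrate dehydrogenase Idh2 at 0.17. Among the normal diet arrays, Icos was well above background on 1 of 3. Over all other kept probes, 33 lay as close to Pla2g10 as Idh2, and 2 of the 6 Pla2g10 values behind these distances were not well above background. With slide means removed, 0 of these 4 remained among the closest 5, and in the deposited log2 values all 4 did. Pla2g7 and Pla2g10 were 0.45 apart.

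**Figure D4:**
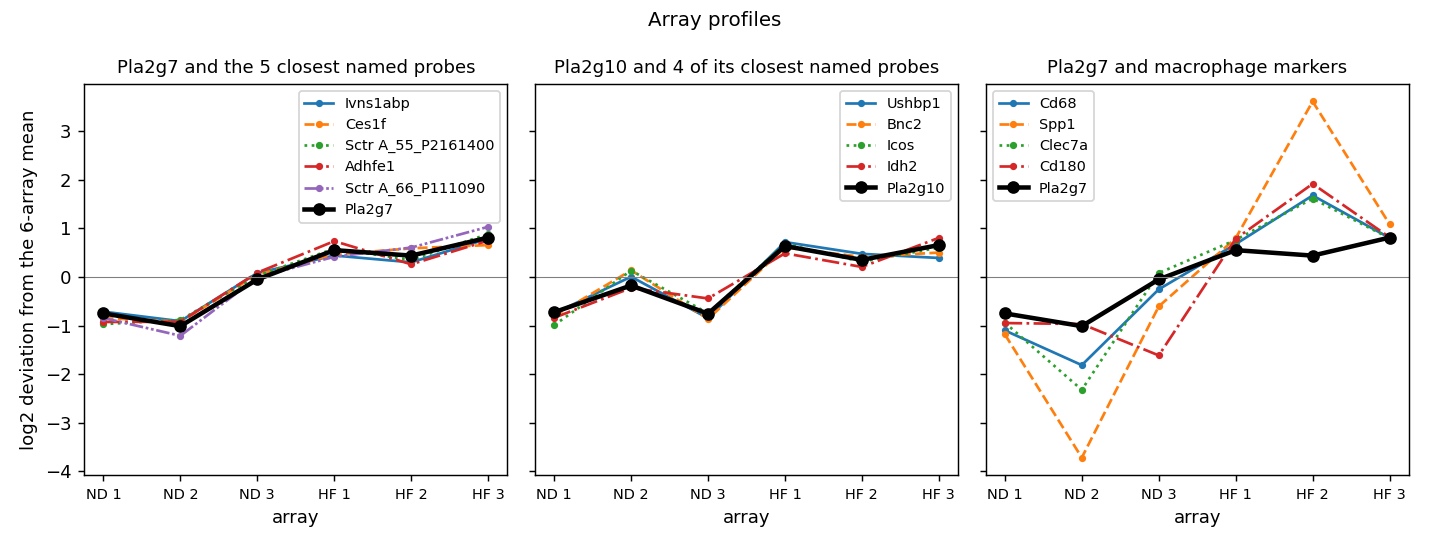
Log2 deviation from the mean of the 6 arrays (vertical axis) on each array (ND normal diet, HF high-fat diet) for Pla2g7 and its 5 closest named probes, for Pla2g10 and 4 of its closest, and for Pla2g7 beside 4 macrophage markers. Lines join the values of 1 probe (for Pla2g7, the mean of 2) and imply no order of arrays. The markers peak on high-fat diet replicate 2, where Pla2g7 is at its lowest for that diet (9.52).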

How the data were processed

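The authors deposited 1-colour scanner output of 6 arrays (Feature Extraction 10.7.1.1) with a background-subtracted, detrended intensity, its error, the mean and background intensity and flags per spot, and a table of log2 values, quantile normalised in GeneSpring per the methods. The methods describe the RNA as Trizol extracts and the mice as randomly chosen from each diet group. The grid in the headers is of build mm9. Nothing names the probes in the scanner output, so genes were named through the probe and symbol columns of the study's list (357 probes, of which all 357 were in the files, 284 had a symbol and 252 one that matched RefSeq). Its fold changes and p-values were not used.

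Spots marked as outliers were left out, spots of a probe averaged, a floor of 1 set, and log2 intensities quantile normalised. Detection on an array required a share of 0.5 or more of a probe's spots to be significant, well above background and no outlier. Probes detected on all 3 arrays of 1 diet entered 1 fit in R 4.3.3 with limma 3.58.1 (lmFit, eBayes, two-sided, Benjamini-Hochberg). A probe was called at 2-fold or more with an unadjusted p of at most 0.05. The fit was tested on simulated data. With the slide as a block, the difference is the high-fat mean minus normal diet replicate 2. The number of arrays limits the precision.

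Python 3.11.15 with pandas 2.3.3, numpy 2.4.6 and matplotlib 3.10.9 read the files, measured distances and drew the plots. Promoter and gene coordinates are from RefSeq GRCm38.p6. The members and gene lists were chosen with earlier results of these data known. Named genes are Pla2g7, Pla2g10, list genes that were called or did not overlap, markers that define a cell type, and the 5 named probes closest to each gene, of which 1 is not reported here. Protein sequences and qPCR were not analysed here.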

Additional observations from a re-analysis of the deposited data

How the results depend on the processing

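Pla2g7 and Pla2g10 were higher on the high-fat diet under each setting in which their difference was recomputed (the scalings, background corrections, blocks and arrays left out). Of these settings, 1 moved the Pla2g7 difference by more than the SD between arrays, the slide as a block (1.61), and 3 moved that of Pla2g10: normexp (0.20), the slide as a block (0.72) and, chosen after seeing the data, no background subtraction (0.37). Leaving out single arrays gave 1.00 to 1.48 for Pla2g7 and 0.999 to 1.29 for Pla2g10. Scaling to the 75th percentile gave 1.18 and 1.13, and the deposited log2 values 1.21 and 1.08. Probes meeting both criteria numbered 1909, against 319 with normexp, 986 when detection on all 6 arrays was required, 688 by the methods' t-test, 6099 at 1.5-fold, and 1137 (without normal diet replicate 1) to 5877 (without normal diet replicate 2) with an array left out. At an adjusted p under 0.05, limma called 1 probe, and 8655 if normal diet replicate 2 was left out, which leaves each slide with a single diet. The 12 pathway and marker genes named were selected by the study on these arrays, so that 12 met both criteria is no finding. The number was 5 with normexp, 5 without background subtraction, 9 with the slide as a block, and 10 to 12 with an array left out. The deviations of same-numbered arrays correlated at -0.26, -0.20 and -0.03, which gives no sign of pairing by replicate number. So few arrays cannot exclude it. With a replicate block the differences were 1.21 (SE 0.23) for Pla2g7 and 1.10 (SE 0.27) for Pla2g10, and 2163 probes met both criteria. The cause of these changes was not tested. Signal over background limits Pla2g10, whose normal diet level was well above background on 1 of 3 arrays.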
